A study of Mus musculus with 6 samples.

Results

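Transcripts of 10 genes of fibroblast growth factor (FGF) signalling were followed across 3 fat depots of mice lacking Kdm4b and of wild-type mice. They were chosen by name: the ligands Fgf1, Fgf2, Fgf7, Fgf10 and Fgf21, the intracellular family member Fgf13, the receptors Fgfr1, Fgfr2 and Fgfr3, and the co-receptor Klb, 10 of 18194 genes named on the array. All of their probe sets with a single gene symbol were read, 20 of 34958. The arrays held RNA of brown, subcutaneous and epididymal fat from male mice with a whole-body knockout of the histone demethylase gene Kdm4b (KO) and from male wild-type mice (WT). All mice were 2 months old, were fed chow at room temperature and were fasted for 6 hours before sampling, and the labels name no other treatment. There was 1 Affymetrix array for each depot and genotype, 6 in all, and the labels give neither the number of mice behind an array nor the exons deleted. The series addressed the obesity of mice without Kdm4b, and here the same arrays were also compared between depots.

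Secreted FGFs bind tyrosine kinase receptors together with heparan sulfate chains on the cell surface, and the receptors signal through the adaptor FRS2 to the RAS and ERK kinases. Most FGFs act on neighbouring cells, while FGF21 is a hormone, made largely by the liver, that needs the co-receptor beta-Klotho (Klb) beside FGFR1 to act on adipocytes. FGF13 belongs to a subgroup that is not secreted, stays inside cells and binds voltage-gated sodium channels. In mice, FGF10 is needed for white fat development, and FGF1 is made in adipose tissue under the control of the nuclear receptor PPAR gamma.

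Within a depot a KO and a WT array were compared by size alone, because 1 array a group allows no test. The error given there is how far a gene's probe sets differed among themselves in the KO minus WT log2 difference, with SDs of 0.32 in brown, 0.32 in subcutaneous and 0.31 in epididymal fat, which leaves out the spread between mice. Signals at or under a floor of 63.2, the 40th percentile of all probe sets, were raised to that floor before log2 differences were taken, so that a fold against such a signal is a lower bound ("at least"). The arrays were also fitted together in limma, for 13233 genes that exceeded the floor on 3 or more arrays, where the other genotype or the other depots stand in for replicates. Those p-values measure how alike the arrays of a depot, or the genotype differences of the 3 depots, were. They do not measure the spread between mice. Of the 10 genes 8 entered the fit, while Fgf2 and Fgf21 did not. The number of genes above the floor was between 12651 and 13602 per array. Adipocyte markers were above the floor on every array, and the summed signal of 7 brown adipocyte markers was 160749 and 182224 in brown fat against 13878 to 20604 in the white depots. Kdm4b, whose probe set may lie outside the deleted part and then checks nothing, had signals of 95.2 in KO and 135 in WT brown fat, 157 and 272 in subcutaneous fat, and 188 and 227 in epididymal fat. In bulk tissue, fewer cells of a type and less RNA per cell cannot be told apart.

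Upstream sequences are shown for the 3 genes with the largest differences between brown and white fat, Fgf13, Fgf10 and Fgf7. Promoters of 8 of the 10 genes were in the RefSeq table, 12 in all, without Fgf1 and Fgfr1. Those printed are the 250 bases before each annotated start (mouse build GRCm38.p6), 5′ to 3′ on the gene's strand. RefSeq lists 4 starts for Fgf13, on the minus strand at chrX:59585573-59585822 (a), chrX:59567349-59567598 (b), chrX:59166089-59166338 (c) and chrX:59134437-59134686 (d). Fgf10 lies on the plus strand at chr13:118714449-118714698 and Fgf7 on the plus strand at chr2:126034408-126034657. Capitals mark matches, on either strand, to the motifs spelled out after the sequences.
Fgf13 start a: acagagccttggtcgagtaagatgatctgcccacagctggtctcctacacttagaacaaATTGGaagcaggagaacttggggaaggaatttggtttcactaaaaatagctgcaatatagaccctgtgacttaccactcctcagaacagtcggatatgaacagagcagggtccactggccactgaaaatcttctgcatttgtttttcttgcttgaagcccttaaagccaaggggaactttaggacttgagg
Fgf13 start b: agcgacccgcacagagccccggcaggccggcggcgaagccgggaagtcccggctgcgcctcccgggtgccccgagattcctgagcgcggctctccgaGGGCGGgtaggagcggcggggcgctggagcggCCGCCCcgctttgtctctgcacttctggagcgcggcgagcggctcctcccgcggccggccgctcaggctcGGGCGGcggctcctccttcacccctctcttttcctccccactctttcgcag
Fgf13 start c: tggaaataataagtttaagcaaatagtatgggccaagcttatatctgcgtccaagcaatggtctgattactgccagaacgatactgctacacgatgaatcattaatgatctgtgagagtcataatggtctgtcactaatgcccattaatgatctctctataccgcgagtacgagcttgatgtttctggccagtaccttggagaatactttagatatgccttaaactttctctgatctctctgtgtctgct
Fgf13 start d: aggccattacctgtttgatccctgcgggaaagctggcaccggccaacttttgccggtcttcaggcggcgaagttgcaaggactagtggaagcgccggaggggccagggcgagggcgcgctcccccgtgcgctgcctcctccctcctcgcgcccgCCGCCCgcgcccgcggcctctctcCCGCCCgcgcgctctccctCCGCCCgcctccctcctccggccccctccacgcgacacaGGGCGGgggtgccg
Fgf10: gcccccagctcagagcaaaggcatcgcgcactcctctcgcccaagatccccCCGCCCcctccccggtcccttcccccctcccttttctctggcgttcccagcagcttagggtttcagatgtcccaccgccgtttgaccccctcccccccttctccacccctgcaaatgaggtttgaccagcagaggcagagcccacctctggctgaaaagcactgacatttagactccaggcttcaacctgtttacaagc
Fgf7: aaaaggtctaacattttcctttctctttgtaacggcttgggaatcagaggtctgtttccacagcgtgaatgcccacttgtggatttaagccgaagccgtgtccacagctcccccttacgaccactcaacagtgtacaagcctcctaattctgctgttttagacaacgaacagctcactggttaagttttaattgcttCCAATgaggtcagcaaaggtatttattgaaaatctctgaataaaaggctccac

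Fgf13 starts b and d were rich in G and C, 74.8% and 74.4% against a median of 52.4% over the same windows of 32851 promoters, and held 33 and 31 CpG pairs against a median of 6. Starts a and c had 45.6% and 40.4% G and C, with 2 and 6 CpG pairs. GC boxes, spelled GGGCGG, were found 3 times in start b, 4 times in start d and at 1 place upstream of Fgf10, and 32.7% of all promoters held at least 1. A CCAAT box, spelled by its name, lay 53 bases before the Fgf7 start and another in Fgf13 start a, and 33.8% of all promoters held one. Fgf13 start c had no match. The other motifs searched had no match in these 6 windows. The TATA box, spelled TATAAA, was found in 12.4% of all promoters. The E box, spelled CACGTG, was found in 6.02% and the cyclic AMP response element, spelled TGACGTCA, in 1.55%. The C/EBP palindrome, spelled TTGCGCAA, was found in 0.164% and the C/EBP-ATF element, spelled TGATGNAA, in 3.45%. The direct repeat read by PPAR and RXR was found in 0.0335%. No overlapping matches occurred in the 6 windows. A match is only a run of letters, and the array does not tell which Fgf13 start was used.

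**Figure D1:**
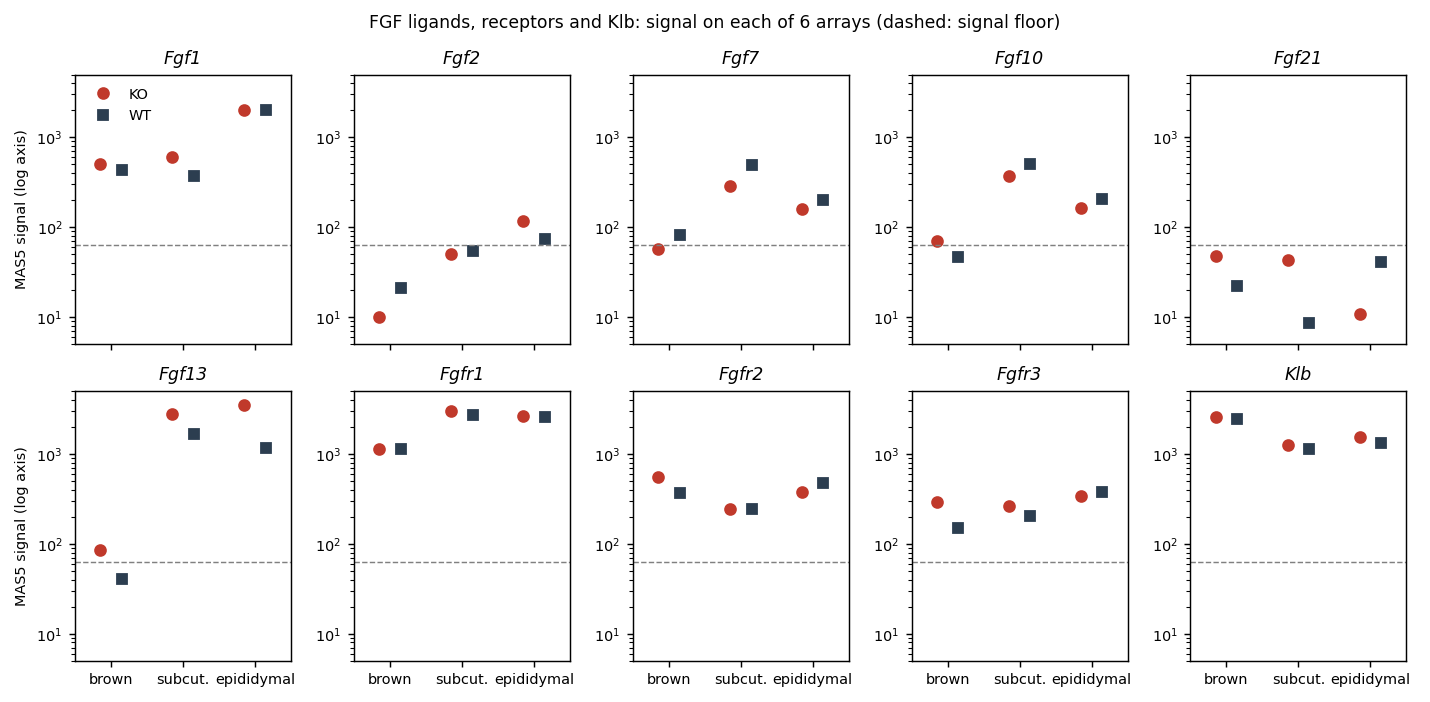
Signal of the brightest probe set of each gene on the 6 arrays, on a log axis, by depot, with KO arrays as red circles left of WT arrays as dark squares and the signal floor of 63.2 dashed. Fgf13 lies between 1156 and 3521 on the 4 white-fat arrays and at 86.3 and 40.5 in brown fat, Fgf1 stands out in epididymal fat and Klb in brown fat, and Fgf21 lies under the floor throughout.

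The paracrine ligand Fgf1 marked epididymal fat. Its brightest probe set had signals of 509.9 in KO and 438 in WT brown fat, 609.7 and 371 in subcutaneous fat, and 1992 and 2012 in epididymal fat. The epididymal arrays lay far above the other 4, and the brown and subcutaneous arrays overlapped. Subcutaneous fat had 4.21-fold less Fgf1 signal than epididymal fat (log2 difference -2.07 ± 0.21 SE, limma adjusted p = 0.0115, 2 against 2 arrays). Brown fat was 2.06-fold lower than the white depots together (-1.05 ± 0.19 SE, limma adjusted p = 0.00782, 2 against 4 arrays). The brown mean of 8.88 on the log2 scale was next to the subcutaneous mean of 8.89. The call against white fat was not made without the brown KO array (limma adjusted p = 0.0557) or with no filter on low signals (limma adjusted p = 0.0716). Fitted as rows of their own, the other Fgf1 probe sets gave -0.45 and -0.64 for brown against white fat and did not pass (limma adjusted p = 0.167 and 0.0542). Both were also brightest in epididymal fat, with subcutaneous minus epididymal differences of -1.44 and -0.93 that did not pass when every probe set was fitted (limma adjusted p = 0.0574 and 0.113).

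The genes whose signal followed Fgf1 most closely over the 6 arrays were Krt8 and Krt19, which encode keratins, and the cytochrome P450 gene Cyp2s1, with Pearson r of 0.994, 0.991 and 0.984 among 6349 genes. These values are a description of 6 arrays, and both signals of a pair come from the same RNA. Krt19 is among the mesothelial markers, and the summed signal of 6 of 6 such markers was 467 and 458 in KO and WT brown fat, 284 and 398 in subcutaneous fat, and 9353 and 10722 in epididymal fat. Upk3b, a defining marker of mesothelium, had 38.3 and 25.6 in brown, 4.40 and 110.2 in subcutaneous and 4651 and 4839 in epididymal fat. The part of mesothelial cells in the Fgf1 difference was not tested.

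Fgf10 and Fgf7, related ligands of the FGFR2 receptor isoform of epithelia, were by their brightest probe sets highest in subcutaneous fat and lowest in brown fat. Fgf10 had signals of 70.6 in KO and 46.7 in WT brown fat, 375 and 499 in subcutaneous fat, and 164 and 206 in epididymal fat. The 3 depots did not overlap. Fgf10 was at least 4.22-fold lower in brown than in white fat (log2 difference -2.08, 2 against 4 arrays), with the brown WT array under the floor. Fgf10 could enter the fit through the white arrays alone, so this value is given without a test. It was 2.35-fold higher in subcutaneous than in epididymal fat (1.24 ± 0.19 SE, limma adjusted p = 0.035, 2 against 2 arrays).

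The brightest Fgf7 probe set gave the same order, with 57.2 in KO and 81.3 in WT brown fat, 291 and 493 in subcutaneous fat, and 158 and 199 in epididymal fat. By this probe set Fgf7 was at least 3.61-fold lower in brown than in white fat (log2 difference -1.85), with the brown KO array under the floor. Fgf7 too could enter the fit through the white arrays alone, so this value is given without a test. It was 2.14-fold higher in subcutaneous than in epididymal fat (1.10 ± 0.17 SE, limma adjusted p = 0.0351). The other Fgf7 probe set read 145 and 139.9 in KO and WT brown fat, 174 and 115 in subcutaneous fat, and 72.9 and 55.3 in epididymal fat. It placed brown fat above epididymal fat, and fitted as a row of its own it was higher in brown than in white fat by 0.54 ± 0.17 SE (limma adjusted p = 0.0454), against a difference of -1.85 for the brightest. For subcutaneous against epididymal fat the probe sets gave 1.06 and 1.10 (limma adjusted p = 0.0512 and 0.0414 with every probe set fitted). The direction of Fgf7 in brown fat thus depended on the probe set, and its direction between the white depots did not.

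Markers of adipocyte precursors and fibroblasts, cells that make paracrine FGFs, were lower in brown fat for 8 of 8 measured, against 31.2% of all genes. Fgf10 and the brightest but not the other Fgf7 probe set were lower there too. The summed signal of the 8 markers was 19213 and 27337 in KO and WT brown fat, 59095 and 69233 in subcutaneous fat, and 53547 and 56012 in epididymal fat. Between the white depots 1 of 8 was called higher in subcutaneous fat and 0 lower, against 3.91% and 1.16% of all genes. Subcutaneous fat also carried more lymphocyte signal (6 of 7 markers called higher, against 3.91% of all genes, median log2 difference 3.50). Lymphocyte sums were 30849.9 and 29193, against 16368 and 13950.2 in epididymal fat, carried there by Ighm. Skeletal muscle sums of 9 markers were 59402 and 51089 in subcutaneous fat, against 2013 and 4967 in epididymal fat. Of these 9 markers 0 were called higher and 0 lower (median log2 difference 4.74). Their part in the Fgf10 and Fgf7 differences was not tested.

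Fgf2, a ligand of many mesenchymal cells, and the hormone gene Fgf21 were at the edge of detection. Fgf2 had signals of 9.99 in KO and 20.8 in WT brown fat, 49.9 and 54.8 in subcutaneous fat, and 118 and 74.7 in epididymal fat. Only the epididymal arrays were above the floor, where KO was 1.58-fold higher than WT. Fgf21 had 47.5 and 22.1 in brown, 42.9 and 8.49 in subcutaneous, and 10.9 and 41.3 in epididymal fat, under the floor on 6 of 6 arrays. No order between these Fgf21 signals was read. Each gene had a single probe set.

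Fgf13 had the largest depot difference of the 8 fitted genes. That pattern was part of the reason for listing it, so its brown and white levels are given as a description without a test. Its brightest probe set read 86.3 in KO and 40.5 in WT brown fat, 2807 and 1685 in subcutaneous fat, and 3521 and 1156 in epididymal fat. Brown fat was at least 28.4-fold lower in the means of log2 signals, and the white depots overlapped (subcutaneous minus epididymal 0.11 ± 0.30 SE, limma adjusted p = 0.867, 95% interval -0.66 to 0.87). The second probe set stayed between 5.36 and 63.6, above the floor on 1 array by a narrow margin, and gave no depot order. The 5 genes closest to Fgf13 over the 6 arrays were Arrdc4, Aspn, Map4, Mb21d2 and Mlkl (Pearson r of 0.999, 0.996, 0.996, 0.996 and 0.996). Of 14 genes for subunits of voltage-gated sodium channels, 11 were analysed here and 4 entered the fit. Binding of FGF13 to any of these subunits was not tested. Scn7a, an atypical sodium channel gene, was 7.68-fold lower in brown fat (limma adjusted p = 0.000439), with signals of 627 and 668 in brown, 4088 and 4459.7 in subcutaneous, and 5065 and 6613 in epididymal fat. Scn3b was 2.54-fold lower in brown fat (limma adjusted p = 0.00601). Scn2b, also a beta subunit gene, read 132 and 146 in KO and WT brown, 116 and 72.3 in subcutaneous, and 4.67 and 60.8 in epididymal fat. Scn2b entered the fit only with the brown arrays, so its value of at least 1.83-fold higher in brown fat is given without a test. Scn3b, which encodes a channel beta subunit, was also 2.82-fold lower in subcutaneous fat than in the epididymal depot (limma adjusted p = 0.0427). Scn4b was 2.47-fold higher in KO than in WT subcutaneous fat (278 against 112), without a test.

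Fgfr1, the main FGF receptor gene of adipose tissue, was lower in brown fat. Its brightest probe set read 1129 in KO and 1135 in WT brown fat, 3045 and 2716 in subcutaneous fat, and 2636 and 2607 in epididymal fat. By this probe set brown and white arrays did not overlap, and KO and WT arrays of a depot were close. Fgfr1 was 2.43-fold lower in brown than in white fat (-1.28 ± 0.12 SE, limma adjusted p = 0.00115, 2 against 4 arrays). The other 2 probe sets gave -1.25 ± 0.28 and -0.80 ± 0.15 (limma adjusted p = 0.0174 and 0.0109 with every probe set fitted), so that all 3 had the same direction. Subcutaneous and epididymal fat differed by 0.13 ± 0.14 SE (limma adjusted p = 0.628, 95% interval -0.23 to 0.50). Closest to Fgfr1 over the arrays were Arhgef4, Slc25a14 and Clic1 (Pearson r of 0.999, 0.999 and 0.998).

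Klb, the co-receptor gene for FGF21, ran the other way. It read 2611 in KO and 2458 in WT brown fat, 1266 and 1139 in subcutaneous fat, and 1564 and 1340.1 in epididymal fat. Brown arrays were above all white arrays, and Klb was 1.92-fold higher in brown than in white fat (0.94 ± 0.12 SE, limma adjusted p = 0.00268, 2 against 4 arrays). Its second probe set was under the floor on 6 of 6 arrays. The closest genes were Mrps17 and Mrps7, of the mitochondrial ribosome, and Timm23, of mitochondrial protein import (Pearson r of 0.9996, 0.9989 and 0.9994). The sum of brown adipocyte markers given above was also highest in brown fat, and its part in the Klb difference was not tested.

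Fgfr2 and Fgfr3 varied less between depots. Fgfr2 read 551 in KO and 369.8 in WT brown fat, 244 and 243 in subcutaneous fat, and 378 and 472 in epididymal fat, so that subcutaneous fat was lowest and the other depots overlapped. Its brown minus white difference of 0.49 ± 0.21 SE did not pass (limma adjusted p = 0.104, 95% interval -0.04 to 1.03), nor did the subcutaneous minus epididymal one of -0.79 ± 0.24 SE (limma adjusted p = 0.153). A second Fgfr2 probe set gave 0.0096 between the white depots. Fgfr3 read 290.4 in KO and 148 in WT brown fat, 265 and 206 in subcutaneous fat, and 341 and 382 in epididymal fat. Epididymal fat was highest, and the brown arrays lay on either side of the subcutaneous ones. Its differences of -0.48 ± 0.25 SE for brown against white fat and -0.63 ± 0.29 SE for subcutaneous against epididymal fat did not pass (limma adjusted p = 0.158 and 0.286). The genes most like Fgfr2 were Slc22a12, Ampd3 and Eif2b1 (Pearson r of 0.963, 0.962 and 0.959), and those most like Fgfr3 were Ccn1, Cyb5r3 and Napepld (0.966, 0.952 and 0.929).

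**Figure D2:**
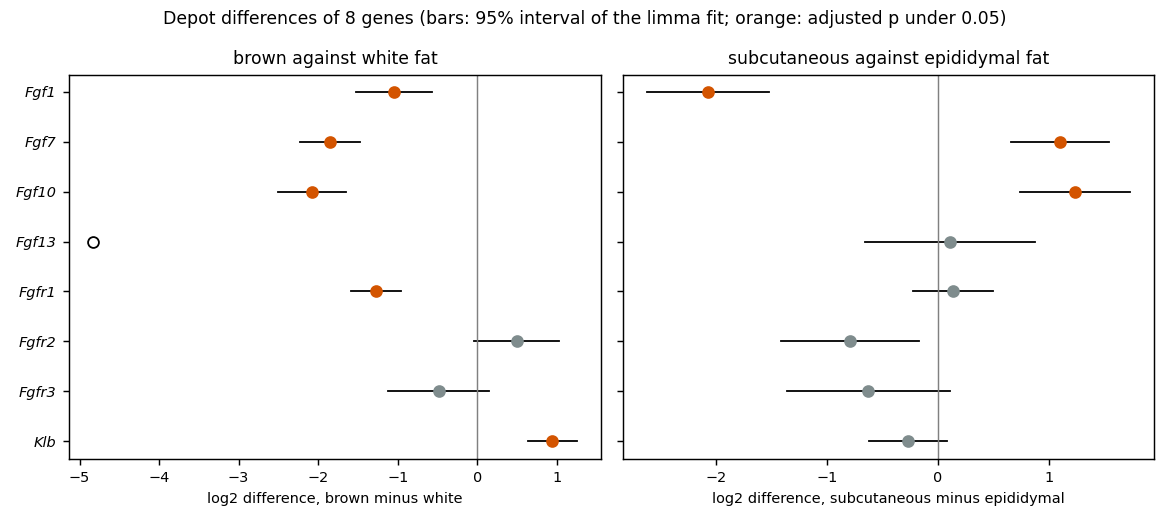
Log2 differences of the 8 fitted genes, brown minus white fat on the left and subcutaneous minus epididymal fat on the right, with 95% intervals from limma and orange points where the adjusted p is under 0.05. Fgf1, Fgf7, Fgf10 and Fgfr1 lie left of 0 and Klb right of it in brown fat, Fgf13 is drawn without an interval as an open circle, and Fgf1 alone passes below 0 between the white depots. Fgf7 and Fgf10 could enter the fit through white fat alone, so their brown minus white calls are descriptions.

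Without Fgf13, 5 of 7 fitted genes differed between brown and white fat, 1 higher and 4 lower, a share of 71.4% against 52.7% of all genes (21.5% higher and 31.2% lower). With so many genes differing between these tissues, nothing particular to the 7 genes was read from that share. Arrays did not overlap between brown and white fat for 4 of 7 genes, against 60.1% of all genes. Fgf7, Fgf10 and Fgf13 were above the floor on 5 arrays and could enter the fit through white fat alone, so these counts are descriptions. Between subcutaneous and epididymal fat 3 of 8 genes passed, Fgf7 and Fgf10 higher and Fgf1 lower, against 5.06% of all genes (3.91% higher and 1.16% lower). Arrays of the white depots did not overlap for 7 of 8 genes, against 52.5% of all genes. The 3 calls between the white depots were fragile. Without the epididymal KO array or without the epididymal WT array 0 of 8 genes passed, as with the floor at the 20th percentile or no filter on low signals. Without the subcutaneous WT array Fgf1 alone passed, without the subcutaneous KO array Fgf1 and Fgf7 did, and without either brown array Fgf1 and Fgf10 did. Over all genes, too, fewer were called with any array left out. With the floor at the 20th percentile 0.357% of all genes were called, and 0.462% with no filter, against 5.06%. Nothing particular to the 8 genes was read from those losses. Quantile normalization left Fgf1 alone (limma adjusted p = 0.0604 for Fgf10 and 0.0902 for Fgf7), with 5.07% of all genes called. The median subcutaneous minus epididymal difference of all genes was 0.0012 on the deposited scale and -0.33 after median centring. Median centring called Fgf10 higher and Fgf1, Fgfr2 and Fgfr3 lower, with 14.5% of all genes called. The share of higher genes among all calls between the white depots was 77.2% as deposited, 62.5% with quantile normalization and 27.2% with median centring.

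Between KO and WT fat the largest difference among these genes was that of Fgf13. In epididymal fat Fgf13 had 3521 in KO against 1156 in WT, 3.04-fold higher (log2 difference 1.61), which exceeded the difference of 99.9% of measured genes. In subcutaneous fat it was 1.67-fold higher in KO (0.74), and in brown fat at least 1.37-fold higher (0.45), where the WT array was under the floor. The mean over depots was 0.93 ± 0.60 (SD, n = 3 depots), higher in 3 of 3 depots. Each difference exceeded the SD between probe sets, but a single probe set measured the gene. In the fit over depots the difference did not pass (limma adjusted p = 0.524, unadjusted p = 0.0122, 95% interval 0.31 to 1.56), and under the alternatives tried its adjusted p lay between 0.188 and 0.867.

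**Figure D3:**
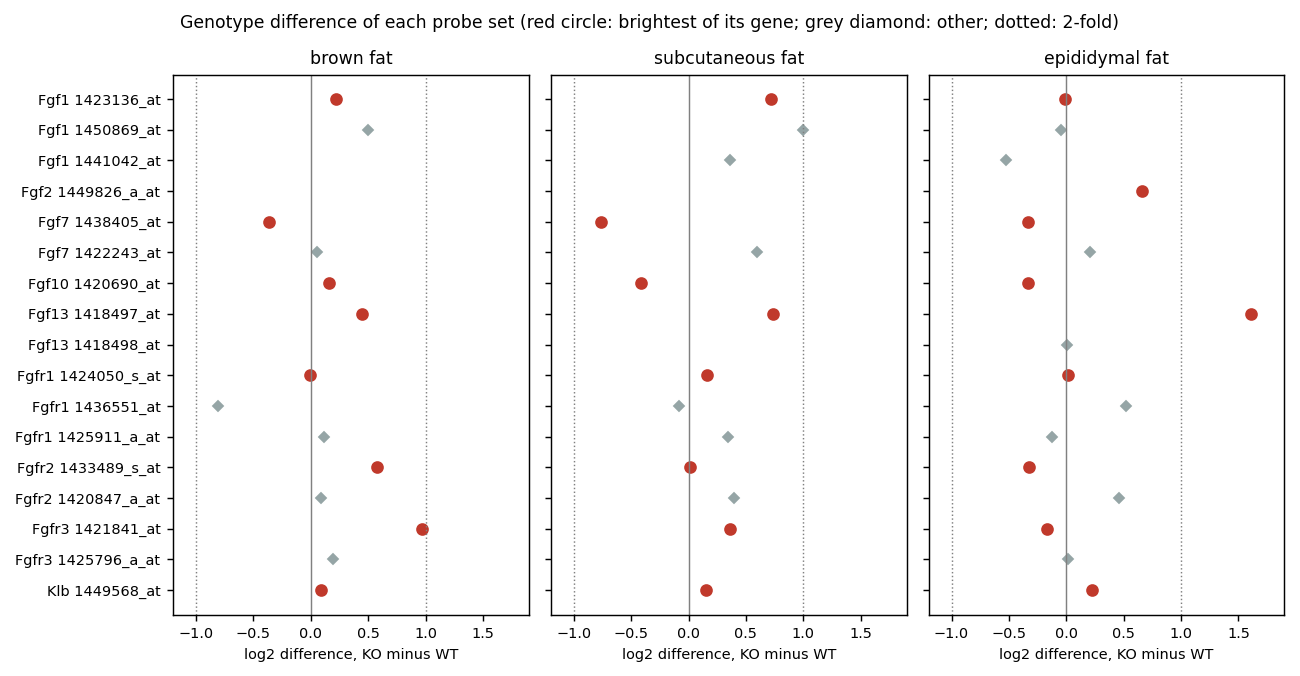
Log2 difference of KO minus WT for each probe set with at least 1 array above the floor, by depot, with the brightest probe set of a gene as a red circle, others as grey diamonds, and dotted lines at 2-fold. Points are left out where both arrays lie at or under the floor. Fgf13 in epididymal fat, at 1.61, is the red circle beyond 2-fold, and the Fgf7 probe sets lie on opposite sides of 0 in all 3 depots.

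In epididymal fat 1 of 9 measured genes of the group, Fgf13, was past 2-fold, and 0 were lower by as much, against 0.883% of all genes higher and 1.44% lower in that depot. In subcutaneous fat 0 of 8 were past 2-fold, against 2.21% higher and 0.75% lower of all genes, and in brown fat 0 of 8, against 1.11% higher and 2.42% lower. Fgfr3 was just short of it in brown fat, with 290.4 in KO against 148 in WT (1.96-fold higher, log2 difference 0.97), and was past 2-fold there after quantile normalization (1.12) or median centring (1.11). Its difference was 0.36 in subcutaneous and -0.17 in epididymal fat, and the second Fgfr3 probe set was above the floor on 2 arrays only. Fgf1 was 1.64-fold higher in KO subcutaneous fat (609.7 against 371), with 0.72 there, 0.22 in brown and -0.01 in epididymal fat. The second Fgf1 probe set, at 348 in KO against 174 in WT subcutaneous fat, gave 0.50 in brown, 1.0 in subcutaneous and -0.05 in epididymal fat. A further Fgf1 probe set, under the floor in brown fat, gave at least 0.36 in subcutaneous fat. In epididymal fat it gave -0.52 (113 in KO against 163 in WT), so the level epididymal value was not shared by all probe sets.

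Fgf7 went in opposite directions by probe set. The brightest was lower in KO in 3 of 3 depots, with differences of -0.36 in brown, -0.76 in subcutaneous and -0.33 in epididymal fat (unadjusted p = 0.0176, limma adjusted p = 0.525), while the other gave 0.05, 0.60 and 0.21. The mean of both came to -0.10 over depots. Fgf10 was 1.33-fold lower in KO subcutaneous and 1.26-fold lower in KO epididymal fat, and 1.12-fold higher in brown fat where it was near the floor. Klb was higher in KO in 3 of 3 depots by small amounts, 0.09, 0.15 and 0.22 in brown, subcutaneous and epididymal fat, each within the SD between probe sets, and 0.0025 in subcutaneous fat after median centring. Fgfr1 differed by -0.01, 0.16 and 0.02 in the same order by its brightest probe set. A second Fgfr1 probe set gave -0.81, -0.08 and 0.52, and a further probe set 0.12, 0.34 and -0.12. The brown and epididymal values of the second exceeded the SD between probe sets, in opposite directions. Signs of small values turned with the scaling: after median centring the brightest Fgfr1 probe set in brown fat was 0.13, Fgf1 in epididymal fat 0.12 and Fgfr2 in subcutaneous fat -0.14.

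Fgfr2 was higher in KO brown fat (551 against 369.8, log2 difference 0.58) and lower in KO epididymal fat (378 against 472, -0.32), and was level in subcutaneous fat (0.01). The second Fgfr2 probe set gave 0.09, 0.40 and 0.46 in brown, subcutaneous and epididymal fat, so the epididymal direction was not shared. The difference between the genotype effects of brown and white fat was tested for the 8 fitted genes, and 0 passed (0% of all genes). It was 0.87 ± 0.33 SE for Fgfr3 (limma unadjusted p = 0.0561, adjusted p = 0.632) and 0.73 ± 0.28 SE for Fgfr2 (0.0566 and 0.632). At an unadjusted p under 0.05 there were 0 of 8 such genes, against 8.06% of all genes. For the genotype difference over depots 0 of 8 genes passed (0% of all genes), and 2 of 8, Fgf13 higher and Fgf7 lower, had an unadjusted limma p under 0.05, against 8.34% of all genes. Fgf13 and Klb were higher and Fgf7 lower in 3 of 3 depots, 3 of 8 genes, against 14.8% of all genes higher and 15.8% lower in 3 of 3. Skeletal muscle signal moved with genotype (sums of 9 markers of 531 in KO and 16845 in WT brown fat, 59402 and 51089 in subcutaneous fat, 2013 and 4967 in epididymal fat). In KO brown fat 9 of 9 of these markers were past 2-fold lower, against 2.42% of all genes. In KO epididymal fat 8 of 9 were past 2-fold lower, against 1.44% of all genes. Subcutaneous fat went the other way, with 3 of 9 past 2-fold higher in KO and 0 lower, against 2.21% and 0.75% of all genes. In KO subcutaneous fat 5 of 5 seminal vesicle markers were past 2-fold lower, against 0.75% of all genes (summed signal 1857 in KO against 8938 in WT). There 2 of 5 measured epithelial markers were past 2-fold higher, against 2.21% of all genes (974 against 448, with Krt8, the gene most like Fgf1, at 159.9 against 56.6). The part of these tissues in the genotype differences was not tested.

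Around these genes, most transcripts of heparan sulfate proteins, which help FGFs bind, and of enzymes that act on heparan sulfate were lower in brown fat. Of 18 tested, 14 were lower, 1 was higher and 3 did not pass (31.2% of all genes were lower and 21.5% higher), with a median log2 difference of -1.06 against -0.11 for all genes. Gpc1, a glypican gene, was at least 11.2-fold lower, with 73.2 and 48.8 in KO and WT brown fat, 783 and 561 in subcutaneous, and 1162 and 669 in epididymal fat. The brown WT array was under the floor. Gpc1 could enter the fit through white fat alone, so its difference is given without a test. The count of 14 lower genes includes Gpc1 and is a description. Gpc3, also a glypican gene, was 5.01-fold lower, the syndecan gene Sdc1 4.36-fold and Sulf1, which removes sulfate groups from heparan sulfate, 3.95-fold lower in brown fat (limma adjusted p = 0.000465, 0.000558 and 0.000561). Sdc4, a further syndecan gene, was 2.17-fold higher (limma adjusted p = 0.00782), and was named after its value was seen. Against epididymal fat, subcutaneous Gpc3 was 2.12-fold and Gpc4 1.99-fold lower (limma adjusted p = 0.0291 and 0.0316). The fibroblast marker sums given above were lower in brown fat too, and their part was not tested. For genotype, 0 of 18 passed (0% of all genes), and 2 had an unadjusted limma p under 0.05, against 8.34% of all genes.

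Transcripts that ERK signalling induces or that restrain it were mixed. Of 7 fitted transcriptional targets, 4 were lower and 0 higher in brown fat, against 31.2% and 21.5% of all genes, with a median of -0.86 against -0.11. The immediate early gene Fos was 3.63-fold, Myc 1.91-fold and the cyclin gene Ccnd1 1.82-fold lower (limma adjusted p = 0.00559, 0.00554 and 0.0311). Etv5, an ETS factor gene, was at least 4.08-fold lower, with 60.2 and 89.8 in KO and WT brown fat. Etv5 could enter the fit through white fat alone, so its value is given without a test. The count of 4 lower targets includes Etv5 and is a description. In KO brown fat Fos was 2.93-fold (292 against 99.7) and Egr1 2.73-fold higher (1656 against 607), without a test, 2 of 9 measured targets past 2-fold higher and 0 lower, against 1.11% and 2.42% of all genes. Many signals besides FGF induce these genes. Of 13 feedback inhibitors, 4 were lower and 2 higher in brown fat (median -0.37), and with 52.7% of all genes called, nothing about the list was read from this. Il17rd, which encodes a membrane inhibitor of FGF receptors, was 2.28-fold and Errfi1 2.06-fold lower, while the ERK phosphatase genes Dusp4 and Dusp6 were 1.91-fold and 1.84-fold higher (limma adjusted p = 0.00165, 0.00987, 0.0184 and 0.00591). Dusp4 was 2.07-fold lower in KO epididymal fat (354 against 732), and Dusp5 at least 2.44-fold lower in KO subcutaneous fat (46.2 against 154).

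Of 14 signal transducers, 4 were lower and 3 higher in brown fat, also near the 52.7% of all genes called, by no more than 1.86-fold (Stat3, lower, limma adjusted p = 0.00325), and 0 were past 2-fold between genotypes in any depot. The adaptor gene Gab1 was 1.69-fold lower, while Frs3, also an adaptor gene, was 1.82-fold and the ERK kinase gene Map2k2 1.70-fold higher (limma adjusted p = 0.0178, 0.0169 and 0.00531). Of the other 16 FGF ligand genes, 6 were under the floor on every array and 7 entered the fit. Fgf9, a paracrine ligand, was at least 2.19-fold higher in brown fat (215 and 321 in KO and WT, against 86.1 and 56.7 in subcutaneous and 214 and 178 in epididymal fat, limma adjusted p = 0.0141). Fgf14, which like Fgf13 encodes an intracellular factor, read 173 and 231 in KO and WT brown fat. It read 40.9 and 158 in subcutaneous and 6.84 and 17.5 in epididymal fat. It entered the fit only with the brown arrays, so its value of at least 2.52-fold higher in brown fat is given without a test. Fgf14 was also at least 2.5-fold lower in KO subcutaneous fat, without a test. Fgf18 and Fgf4, further ligand genes, were above the floor on the 4 white arrays only and entered the fit through them, so their values of at least 2.09-fold and 1.63-fold lower in brown fat are given without a test. Among other receptors and binding proteins 1 of 3 passed between brown and white fat, against 52.7% of all genes. It was Fgfrl1, which encodes an FGF receptor without a kinase domain, 1.63-fold lower in brown fat (limma adjusted p = 0.0321). Of 12 regulators of Fgf21 and stress genes, 7 were higher and 3 lower in brown fat, against 21.5% and 31.2% of all genes. Ppara, which encodes the nuclear receptor that induces Fgf21 in liver, was 13.9-fold higher (limma adjusted p = 0.000439), with 4241 and 4346 in KO and WT brown fat against 241 to 349 in white fat. Ppargc1a, a coactivator gene, was 10.5-fold and Mlxipl, which encodes a sugar-responsive factor, 4.76-fold higher, and the stress gene Chac1 was 3.63-fold lower (limma adjusted p = 0.000441, 0.000693 and 0.00464). For genotype over depots, 0 genes passed in any of the 8 lists. Fgf21 itself was under the floor on the same arrays.

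**Figure D4:**
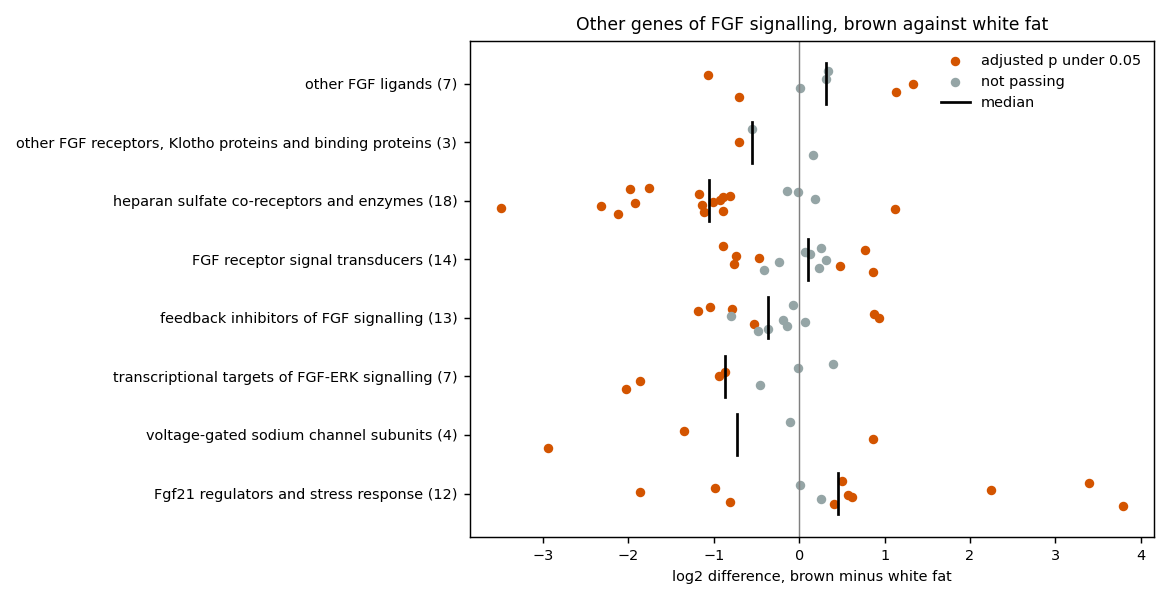
Log2 difference of brown minus white fat for the other genes of FGF signalling by list, with the number tested in brackets, orange where the limma adjusted p is under 0.05, grey where it is not, and a black bar at the median. The heparan sulfate list has its median at -1.06, the signal transducers centre near 0, and 2 of the orange ligand genes, Fgf4 and Fgf18, entered the fit through white fat only. Fgf14 and Scn2b entered only with the brown arrays, and Gpc1 and Etv5 could enter through white fat alone.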

How the data were processed

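RNA of 6 samples was hybridised to Affymetrix arrays. The authors deposited intensity values, linear signals per probe set from MAS5 in Affymetrix Expression Console per the submitters' processing notes, with versions not given in the sources used here. Tested on the table, each array's trimmed mean (2% off each end) was 500, so differences in total RNA are lost. Of 45037 non-control probe sets, 34958 had a single gene symbol, 932 had several and 9160 had none. Each gene was read by its brightest probe set, floored at 63.2 and put on the log2 scale. limma 3.58.1 (R 4.3.3) fitted depot and genotype over 6 arrays, and Benjamini-Hochberg adjustment ran over 13233 genes. The scripts were tested on simulated data. Python 3.11.15 computed the rest. Alternatives were other scalings, floors, probe set rules, filters, fold thresholds and left-out arrays or depots. The members, gene lists and motifs were chosen with earlier results of these data known. The genes named were all members, up to 4 genes per list and comparison with the largest called difference, and the 3 (for Fgf13, 5) most correlated genes. The number of arrays limits the precision, and nothing says whether depots came from the same mice.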

Additional observations from a re-analysis of the deposited data

Results flagged for a closer look

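Fgfr2 moved in opposite directions with genotype in 2 depots, each difference larger than the SD between probe sets of a gene there. The KO minus WT log2 difference was 0.5758 in brown fat (551 against 369.8) and -0.3213 in epididymal fat (378 against 472). The epididymal value barely exceeded the SD of 0.31 there. It was -0.2362 after quantile normalization and -0.1872 after median centring, both smaller in size than that SD. The contrast of brown with both white depots was tested and did not pass (limma adjusted p = 0.632), and that of brown with epididymal fat alone was not tested. The second Fgfr2 probe set gave 0.09 in brown and 0.46 in epididymal fat.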

How the results depend on the processing

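No paired analysis was possible because the groups, with 1 array each, share fewer than 2 replicate numbers; the genotype fit with depot as a term already sets KO against WT within depots. The count of the fitted members that differed with genotype over depots was 0 under all 18 alternatives (of all genes, 4 passed after median centring and 33 with an intensity trend, against 0), and that between brown and white fat stayed within 1.5 times. Between subcutaneous and epididymal fat the count was 3, against 1 after quantile normalization, 0 with the floor at the 20th percentile, 0 with no filter on low signals, and 0 to 2 without 1 array. Of all genes 5.06% were called between these white depots, against 5.07% after quantile normalization, 0.357% with the lower floor and 0.462% with no filter. Past 2-fold between KO and WT, the count in brown fat was 0, against 1 after quantile normalization, 1 after median centring, 2 with the lower floor and 1 at 1.5-fold. In subcutaneous fat it was 0, against 1 with the lower floor and 3 at 1.5-fold. In epididymal fat it was 1, against 2 with the lower floor, 0 with the mean of all probe sets and 2 at 1.5-fold. A threshold of 1.5-fold takes in more of all genes too. Shares of all genes are not given for these settings, so nothing particular to the members was read from these counts. Among log2 differences with no call, the genotype value of Fgfr1 was -0.13 without probe sets ending in _s_at or _x_at, and that of Fgfr2 was -0.16 without brown fat and -0.16 to 0.29 without 1 array. Between subcutaneous and epididymal fat, Fgf13 was -0.23 and Fgfr1 -0.21 after median centring, Fgf13 was -0.40 to 0.61 without 1 array, and Fgfr2 was 0.0096 without those probe sets. The cause was not tested. Fgfr2 between brown and white fat passed without the brown WT array (0.86, limma adjusted p = 0.0358), and Fgfr3 without the brown KO array (-0.92, 0.0432). Signal near the floor limits Fgf2, Fgf21 and the brown values of Fgf7, Fgf10 and Fgf13.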
